A study of Homo sapiens with 15 samples.

Results

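Ribosome footprints of a HEK293 line labelled as depleted of both ZC3H7A and ZC3H7B were compared with those of its parental line, in 3 libraries for each line. HEK293 is an established human embryonic kidney line, and ribosome profiling sequences the mRNA fragments that translating ribosomes protect from nuclease. The parental cells were wild type with a control short hairpin RNA (genotype Wild-type-shCTR). The other cells carried a knockout of ZC3H7A together with an shRNA to ZC3H7B (genotype ZC3H7A-KO-shZC3H7B), and their libraries are called DD below, after the label ZC3H7A/B-DD. Both lines had been kept in puromycin at 5 µg/mL until 2 passages before collection. Pellets of both were frozen, and cycloheximide (100 µg/mL) was present when they were lysed for polysomes. The labels do not say whether the knockout line is 1 clone or whether replicates are separate cultures, so the spread behind each p-value may be technical, being that of these libraries alone. Of 55773 gene names in the table, 17092 had a normalized count of 10 or more in at least 3 of the 6 libraries and were tested. The value that decides, the lowest of a gene's 3 highest, was 10.1 in the nearest gene inside this bound and 9.71 in the nearest one outside it. Within 1 normalized count of the bound lay 318 tested genes and 391 untested names.

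ZC3H7A and ZC3H7B are related RNA-binding proteins with CCCH-type zinc fingers, and the study's title ties them to a control of translation and mRNA stability that depends on codons. Footprints of a gene follow both the amount of its mRNA and how densely ribosomes occupy it. Footprints alone do not separate these, and RNA sequencing was not used here. One of the gene groups below is the integrated stress response, in which phosphorylation of the initiation factor eIF2 lowers general initiation while it raises translation of the transcription factor ATF4. ATF4 in turn drives genes for amino acid synthesis, amino acid uptake and the charging of tRNAs.

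Neither targeted gene was lower in the DD libraries. ZC3H7A (chromosome 16, 11750586 to 11797267 on the minus strand, GENCODE 29 on GRCh38) stood at 1885, 1819.9 and 2311 normalized counts in parental replicates 1 to 3. It stood at 7116, 1890.3 and 5066 in DD replicates 1 to 3, so 2 DD libraries were far above the parental range and DD 2 lay within it. The log2 change of DD minus parental was 1.03 (SE 0.39, limma adjusted p = 0.085). It passed the test at 1.59 without DD 2 (limma adjusted p = 0.00124). ZC3H7B (chromosome 22, 41301522 to 41360147 on the plus strand) stood at 2479, 2321 and 2609 in the parental libraries and at 3948, 2399 and 2969 in the DD libraries. DD 2 again lay inside the parental range, and the log2 change was 0.30 (SE 0.16, limma adjusted p = 0.198). Without DD 2 it was 0.47 (limma adjusted p = 0.0463). A gene's value is 1 sum of reads, so it does not show which codons they cover. Every direction below is therefore that of the libraries labelled ZC3H7A/B-DD against the parental ones.

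The coding sequences of the 2 targets differ in the base that ends each codon, the feature the study's title turns on. Over all codons, 64.2% of the 970 in ZC3H7A and 19.1% of the 976 in ZC3H7B ended in A or T. Their first 50 codons are shown from GENCODE 29, 5′ to 3′, with capitals at each A or T that ends a codon after the start codon. Of 49 such codons, 28 in ZC3H7A and 16 in ZC3H7B carry a capital.
ZC3H7A: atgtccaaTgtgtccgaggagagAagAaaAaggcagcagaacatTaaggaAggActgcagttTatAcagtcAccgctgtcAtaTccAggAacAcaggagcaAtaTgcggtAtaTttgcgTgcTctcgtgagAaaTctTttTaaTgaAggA
ZC3H7B: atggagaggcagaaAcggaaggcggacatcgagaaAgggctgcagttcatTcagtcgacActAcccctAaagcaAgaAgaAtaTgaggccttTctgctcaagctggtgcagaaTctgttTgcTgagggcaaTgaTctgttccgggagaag

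Libraries held 32955833 to 39064072 assigned reads in the parental line and 20777204 to 42680589 in the DD line, 97.7% to 98.3% of them in protein-coding genes. The first principal component of the log2 values (56.1% of variance) separated the lines. The second (16.3%) set parental 3 and DD 1 apart from the other 4 libraries. Between replicates of 1 line the chi-square of the reads divided by its degrees of freedom, which is near 1 under pure counting noise, was 8.91 to 87.9. The pairs with parental 3 had the largest values, 87.9 and 64.3. By another measure DD 1 and DD 2 differed most, with 1051 genes at least 2-fold apart against 975 and 841 in those pairs. A gene is called when its Benjamini-Hochberg adjusted p from limma is below 0.05. By this rule 1873 genes (11.0% of those tested) rose and 2309 (13.5%) fell in the DD libraries, of which 408 and 436 by at least 2-fold (2.39% and 2.55%). Since the replicates differ, each gene was also fitted 6 more times with 1 library left out. In every one of these fits and in the full one, 663 genes (3.88%) rose and 1157 (6.77%) fell. Counts of list members that rose or fell in every fit, given below, are to be read against these shares. Those of the full fit are to be read against 11.0% higher and 13.5% lower. Counts over the 6 fits ranged from 767 higher and 1192 lower, both without parental 2, to 2642 and 2989, both without parental 3. Higher calls also came to 1072, 1214 and 988 without parental 1, DD 2 and DD 3, and lower calls to 1445 without parental 1. Over all genes tested the median log2 change was 0.02, and the 3 values of one line lay all above or all below those of the other in 40.8% of genes. All log2 changes are on the log2(normalized count + 1) scale, which understates changes of low genes.

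**Figure D1:**
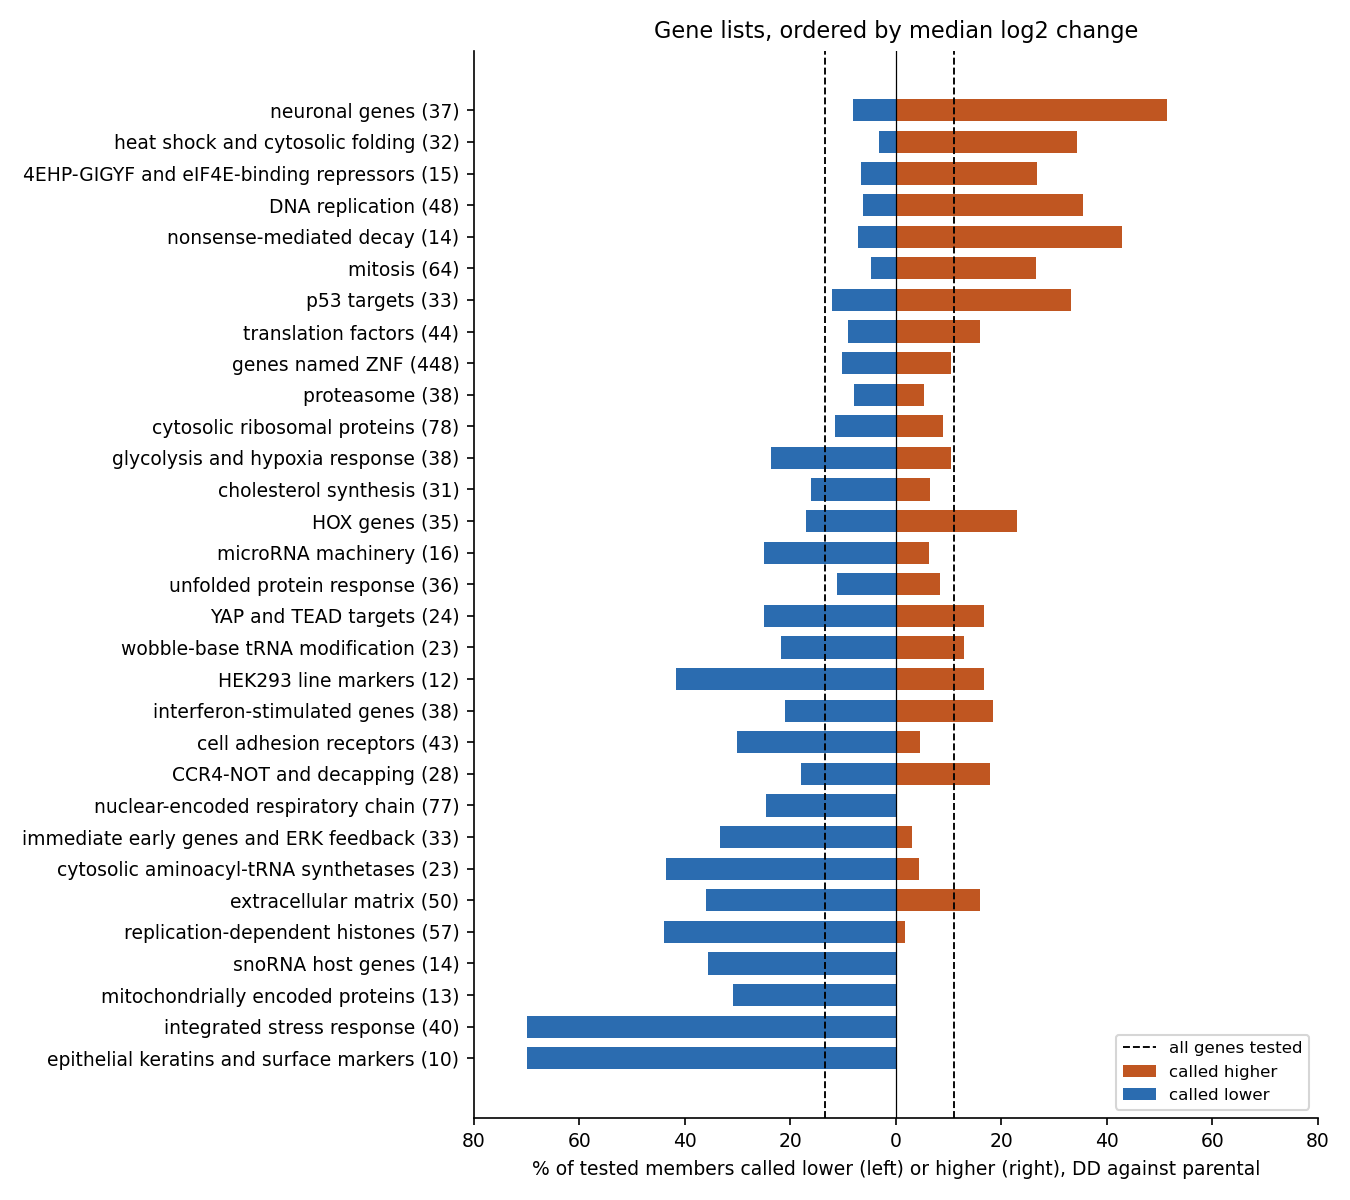
Share of tested members called lower (blue, left) or higher (orange, right) in DD against parental libraries for each gene list of at least 10 tested members, with the number tested in brackets and dashed lines at the shares over all genes tested (13.5% lower and 11.0% higher). The integrated stress response and the epithelial list reach 70.0% lower and the neuronal list 51.4% higher, while ribosomal proteins lie near the dashed lines.

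Genes of the integrated stress response were mostly lower in the DD libraries. The list was chosen with earlier results of these data known, so its excess over all genes is no independent support. Of 40 members tested, 28 fell and none rose, against 13.5% lower and 11.0% higher over all genes, and 25 fell in every fit. In 30 of the 40 all DD values lay below all parental values, against 21.2% of all genes, and in 1 all lay above, against 19.6%. The list's median log2 change was -0.78, and it ranged from -0.80 to -0.76 when single libraries were left out. The count of lower members ranged from 25 to 30 in those fits. Of the 28, 4 (DDIT3, SHMT2, XPOT and SESN2) lie in chromosome stretches described at the end where most genes fell. Without the 4 members in those stretches, 24 of 36 fell.

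Among the regulators of this response, 8 of 15 fell. ATF4, the transcription factor at its centre, stood at 5682, 5841 and 5633 normalized counts in parental replicates 1 to 3 and at 2019, 2377 and 2338 in DD replicates 1 to 3. The groups were far apart, with a log2 change of -1.35 (SE 0.09, limma adjusted p = 2.77e-05). DDIT3 (also called CHOP), a transcription factor of prolonged stress, stood at 498, 428 and 327 against 73.1, 81.9 and 105. Its log2 change was -2.25 (SE 0.19, limma adjusted p = 0.000107). CHAC1, which degrades glutathione, stood at 279, 263 and 263 against 58.3, 80.3 and 61.8 (log2 change -2.00). The largest change of the list was that of NUPR1, a small stress-induced chromatin protein, at 219, 195 and 122 against 19.4, 14.2 and 16.8 (log2 change -3.30). TRIB3, SESN2, DDIT4 and CEBPB fell by 0.94, 0.79, 0.78 and 0.95 on the log2 scale. Of the other regulators, ATF3 (log2 change -0.04), ATF5 (-0.11) and the eIF2 phosphatase subunit PPP1R15B (-0.01) did not pass the test. All members of the list that are named here and in the next paragraph, other than ATF4, STC2 and XPOT, were named after their values were seen.

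Of 8 amino acid transporters in the list, 7 fell. SLC7A11, the cystine carrier, stood at 1639, 1512 and 1257 in the parental libraries and at 329.8, 246 and 345 in the DD libraries (log2 change -2.26, SE 0.15, limma adjusted p = 2.93e-05). The glycine carrier SLC6A9 fell by 2.02, the cationic amino acid carrier SLC7A1 by 1.34 and the leucine carrier SLC7A5 by 0.99 on the log2 scale. SLC1A4 was at -0.10 and not called. Of 11 enzymes of amino acid and one-carbon synthesis, 8 fell. Among them were PYCR1 of proline synthesis (log2 change -1.34), ASNS, which makes asparagine (-0.93), the mitochondrial serine enzyme SHMT2 (-0.91) and PSAT1 of serine synthesis (-0.81). ALDH18A1 (0.32) and CBS (0.09) were not called. The secreted hormone STC2 stood at 4304, 4199 and 3495 against 1080.4, 1222 and 1124, a log2 change of -1.80 (SE 0.10, limma adjusted p = 1.34e-05). XPOT, which exports tRNA from the nucleus, stood at 5686, 5454 and 5239 against 2253, 1988 and 2155 (log2 change -1.36, SE 0.08, limma adjusted p = 2.12e-05). The lines overlapped in none of the genes of this paragraph that fell.

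**Figure D2:**
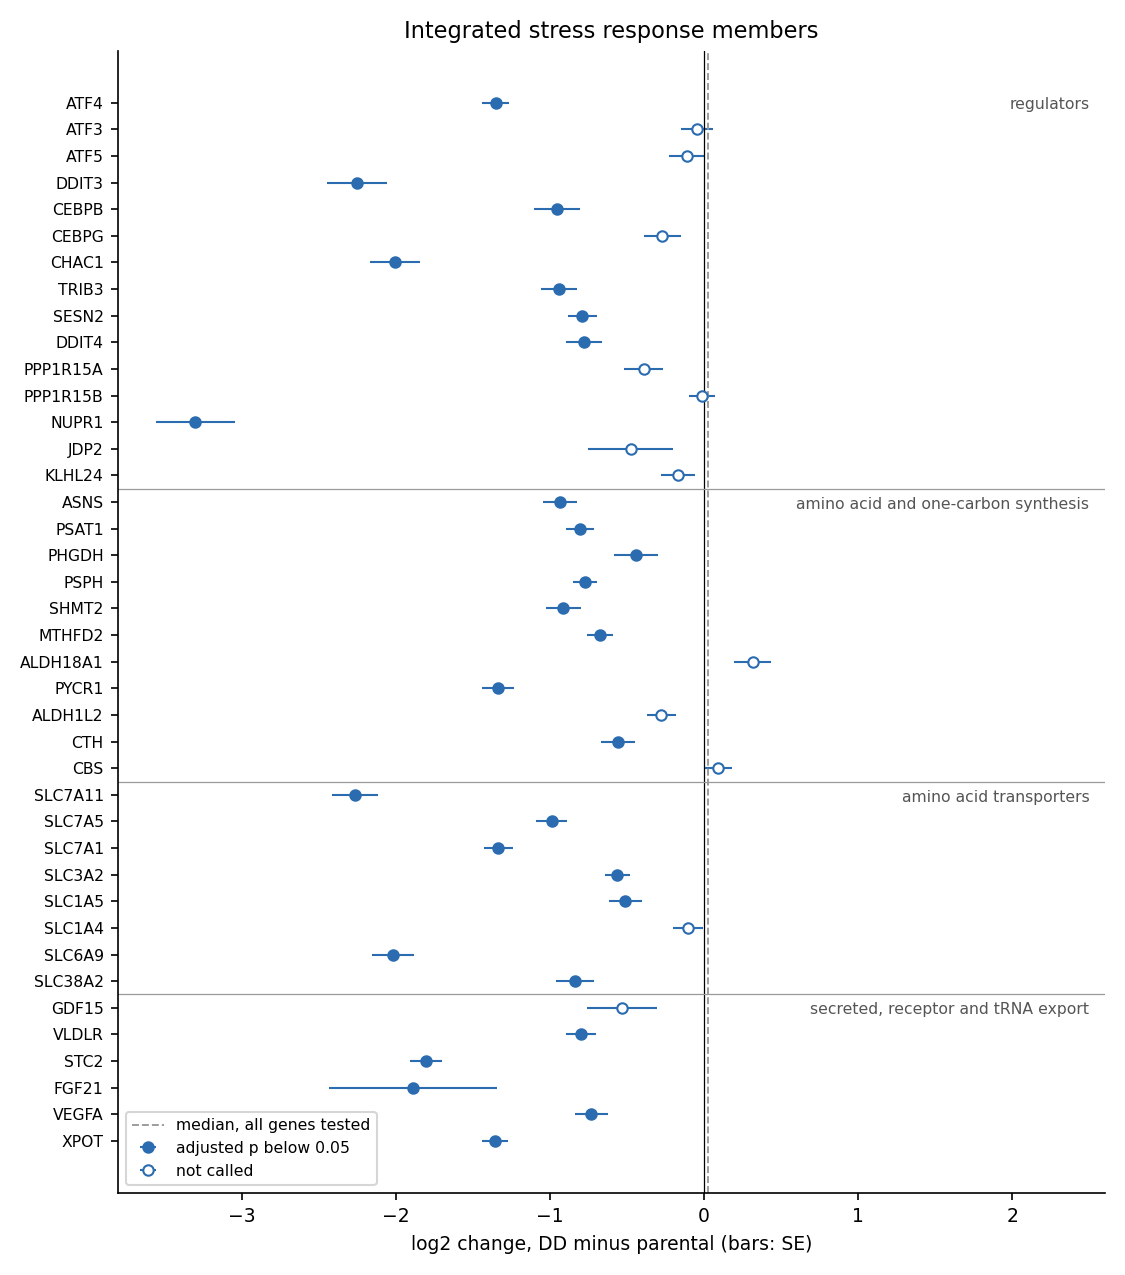
Log2 change of DD minus parental libraries (points, with the SE as bars) for the 40 tested members of the integrated stress response, grouped by role. Filled points passed the test, open points did not, and the dashed line is the median of all genes tested (0.02). All 28 filled points lie below 0, from -3.30 for NUPR1 to -0.44 for PHGDH.

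Promoters of this list were searched for the core of the C/EBP-ATF response element through which ATF4 and its C/EBP partners act (T, G, A, T, G, any base, A, A), on both strands and with no other motif. The motif was chosen after the values were seen. RefSeq windows (GRCh38.p14) of 300 bases, 250 before and 50 after a transcript start, covered 33 of the 40 members. A match lay in at least 1 window of 11 of these 33 genes, against 4.46% of the 27305 genes in the table. Of the 22 covered genes that fell 6 had a match, and of the 11 that were not called 5 had one. A match is a stretch of letters and not a measured binding site. For 4 genes that fell the match lies before the start, and it is shown in capitals with up to 45 bases on each side, 5′ to 3′ on the gene's strand. These are CHAC1 (chr15:40953221-40953314, plus strand), ASNS (chr7:97872424-97872521, minus), SLC1A5 (chr19:46784859-46784956, minus) and FGF21 (chr19:48755425-48755522, plus). In CHAC1 and FGF21 the match is read on the opposite strand.
CHAC1: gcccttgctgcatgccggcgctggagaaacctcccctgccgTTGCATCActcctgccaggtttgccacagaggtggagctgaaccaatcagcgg
ASNS: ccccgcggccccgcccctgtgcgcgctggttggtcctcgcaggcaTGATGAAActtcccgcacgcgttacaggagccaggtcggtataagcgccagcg
SLC1A5: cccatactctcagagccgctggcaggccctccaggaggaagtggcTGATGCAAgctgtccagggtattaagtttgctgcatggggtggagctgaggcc
FGF21: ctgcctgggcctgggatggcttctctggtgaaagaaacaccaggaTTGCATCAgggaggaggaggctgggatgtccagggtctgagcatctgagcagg

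Cytosolic aminoacyl-tRNA synthetases, which load amino acids onto tRNAs, were called lower more often than higher. Of 23 members, 10 fell (43.5%, against 13.5% of all genes), 1 rose and 12 were not called. In every fit 6 fell (26.1%, against 6.77%). Lower calls numbered 6 without parental 2 or without DD 3. MARS, for methionine, stood at 16923, 16605 and 15660.4 in the parental libraries and at 8889.6, 8374 and 8807 in the DD libraries (log2 change -0.92, SE 0.09, limma adjusted p = 0.000185). MARS lies in the chromosome 12 block described at the end, and outside the blocks 9 of 21 synthetases fell, with a median log2 change of -0.11. YARS, for tyrosine, fell by 0.74 and GARS, for glycine, by 0.66 on the log2 scale. QARS, for glutamine, rose by 0.33 (limma adjusted p = 0.0492) but not in every fit. Higher calls numbered 6 without parental 3 and 0 without any other single library.

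The unfolded protein response of the endoplasmic reticulum shares some factors with the stress response above. Of 36 members 3 rose and 4 fell, with a median log2 change of -0.02. Without parental 3, 3 rose and 10 fell. The co-chaperone DNAJB9 stood at 701, 669 and 619.7 in the parental libraries against 265, 175 and 209 in the DD libraries, a log2 change of -1.63 (SE 0.15, limma adjusted p = 0.000171). HERPUD1 and the spliced-mRNA transcription factor XBP1 fell by 0.50 and 0.46 on the log2 scale, while DNAJC3 and ATF6 rose by 0.52 and 0.50.

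The largest losses were in genes with ample footprints in the parental libraries and very few in the DD libraries. All of the 12 lowest log2 changes were called in every fit. That none of these genes overlapped between the lines follows from the rule that picked them. KRT19, a keratin of simple epithelia (chromosome 17, 41523617 to 41528308), stood at 2213, 2220.4 and 2543 in parental replicates 1 to 3 and at 11.7, 14.2 and 5.24 in DD replicates 1 to 3. Its log2 change was -7.77 (SE 0.29, limma adjusted p = 1.23e-06). CDH3, the cell adhesion protein P-cadherin (chromosome 16), stood at 1199.5, 1310.0 and 939.7 against 7.78, 7.88 and 8.38. All 3 DD libraries were nearly level, with a log2 change of -6.98 (SE 0.17, limma adjusted p = 1.07e-07). MFAP2, a protein of elastic microfibrils (chromosome 1), stood at 1071, 1117 and 747 against 7.78, 4.73 and 2.10 (log2 change -7.49, SE 0.35). CRABP2, which carries retinoic acid to its receptors (chromosome 1), stood at 3665, 3679 and 2563 against 36.6, 34.7 and 41.9 (log2 change -6.40, SE 0.16). PTGR1, a prostaglandin reductase, stood at 296, 308 and 298 against 1.56, 6.30 and 3.14.

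The other 7 of the 12 lowest include an endogenous retroviral envelope gene, ERVMER34-1 (log2 change -6.84), the sulfurtransferase-like TSTD1 (-6.56), the glycosyltransferase B3GALNT1 (-5.65) and the ubiquitin ligase subunit FBXO6 (-5.49). RBP7, a retinoid-binding protein, had 210 reads in the parental libraries and 1 in the DD libraries, a ratio of normalized counts with a 95% counting interval of 31.8 to 7106. TMEM220 had 236 and 2 reads, with an interval of 27.5 to 836. For both genes the fitted change depends on the added count of 1. HIST1H2AL, a histone H2A gene, stood at 2639, 2407 and 2534 against 41.2, 72.5 and 39.8 (log2 change -5.65). Near-identical histone genes can share its reads, so its level is uncertain.

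**Figure D3:**
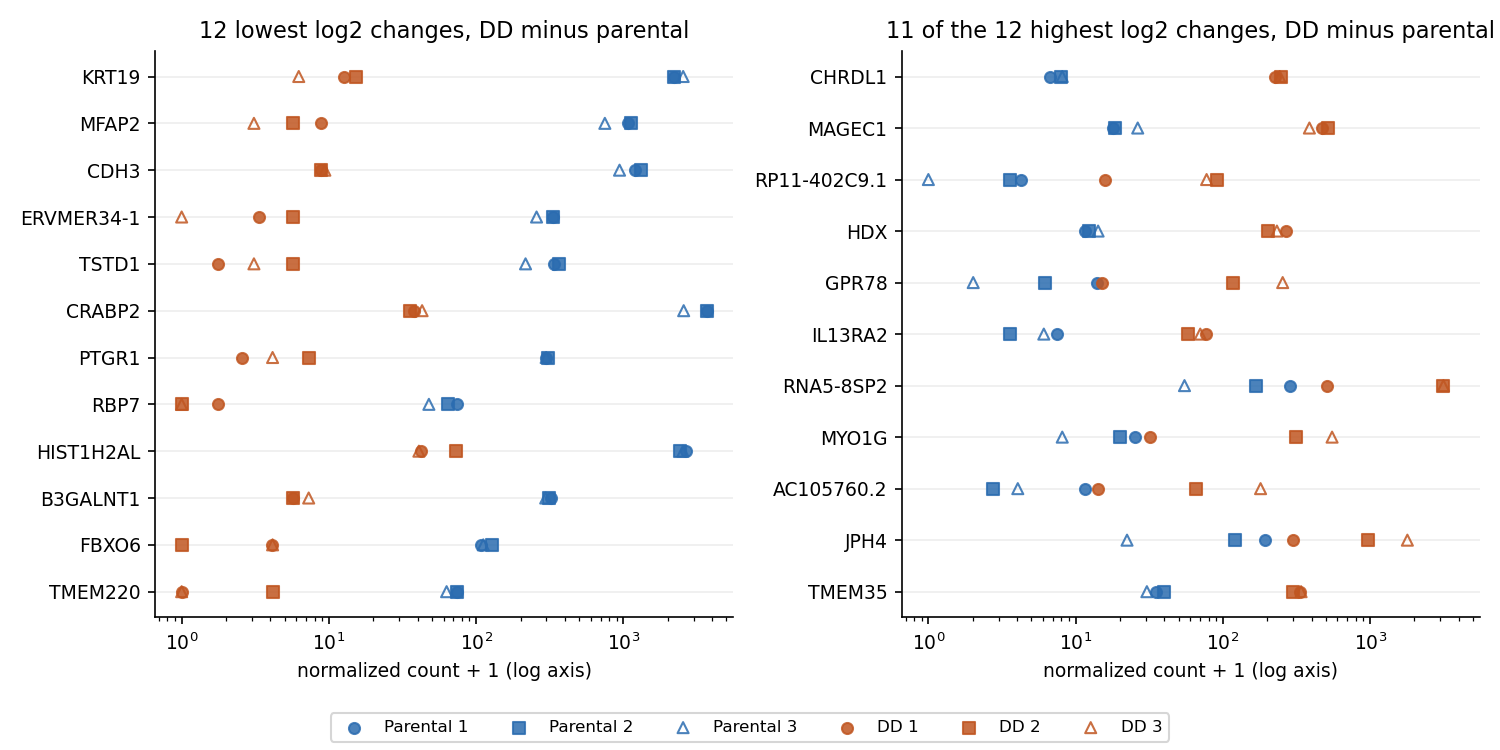
Normalized counts plus 1 (log axis) of the 12 genes with the lowest log2 change and 11 of the 12 with the highest that passed the rule for named genes, with 1 point per library (parental in blue, DD in orange, replicates 1 to 3 as circle, square and open triangle). That the lines stand apart in every gene follows from this rule. On the right GPR78, MYO1G, AC105760.2 and JPH4 show DD 1 next to the parental libraries.

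Of 10 epithelial markers tested 7 fell, all 7 in every fit, and none rose. The list was among the lists chosen with earlier results of these data known. Besides KRT19, the adhesion protein CDH1 (E-cadherin) stood at 165, 182 and 147 in the parental libraries and at 2.33, 12.6 and 11.5 in the DD libraries (log2 change -4.32, SE 0.48, limma adjusted p = 0.000458). Keratins KRT8 and KRT18, which pair into 1 filament, fell by 2.37 and 0.92 on the log2 scale. KRT8 stood at 923, 936 and 1435 against 168, 222 and 236, with no overlap. The surface protein EPCAM fell by 0.76 and the tight junction protein CLDN3 by 2.14. The splicing factor ESRP1 had a log2 change of -2.23. EPCAM, CLDN3 and ESRP1 were named after their values were seen. The summed level of all 16 list members was 9660.0 to 10011 normalized counts in the parental libraries and 3607 to 3942 in the DD libraries. In a bulk sample fewer cells of a type and less RNA per cell cannot be told apart. KRT5, KRT14 and KRT17, keratins of basal epithelia, stayed below 10 in every library, as did KRT81. KRT8 and KRT18 lie in the chromosome 12 block described at the end.

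Markers of the HEK293 line itself were checked in the same way. Of 12 tested, 2 rose and 5 fell. KRT8 and KRT18, which fell, are in this list and in the epithelial one, so the 2 lists are not independent. VIM, the mesenchymal filament protein vimentin, stood at 18695, 19432 and 27638 in the parental libraries and at 42469, 43627 and 38935 in the DD libraries (log2 change 0.95, SE 0.16, limma adjusted p = 0.00319). LIN28B fell by 1.04 and the kidney transcription factor PAX2 by 0.66 on the log2 scale. NEFL, a neurofilament protein, and CDH2, the cadherin of this line, overlapped between the lines, at 250.5 to 343 and 9043 to 11187 normalized counts. The summed level of the 13 markers was 35748 to 43326 in parental and 52191 to 56656 in DD libraries. VIM alone carries the higher sum, as the other 12 markers summed to 15688 to 17053 in parental and 13029 to 13361 in DD libraries. MAGEA4 stayed below 10 in every library. Of 8 fibroblast markers tested 4 fell and none rose, their sum being 1242 to 1296 in parental and 753 to 888 in DD libraries, and DCN, THY1 and FAP were below 10 throughout. Of 12 blood cell markers only 3 could be tested. CD3E, LYZ, HBA1 and CD68 were below 10 in every library. What part other cells have in any result was not tested.

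Of the 12 highest log2 changes, 8 were called in every fit, among them 5 genes of the X chromosome described here. CHRDL1, a secreted antagonist of bone morphogenetic proteins, stood at 5.67, 6.95 and 7.11 in parental replicates 1 to 3 and at 225, 246 and 242 in DD replicates 1 to 3 (log2 change 4.98, SE 0.20, limma adjusted p = 2.31e-06). MAGEC1, a gene normally expressed in testis and tumours, stood at 17.0, 17.4 and 25.4 against 469.8, 518 and 386 (log2 change 4.47, SE 0.20). In both the DD libraries were close to one another and more than 10-fold above every parental library. The homeobox gene HDX rose by 4.20, the interleukin-13 decoy receptor IL13RA2 by 3.63 and TMEM35 by 3.21 on the log2 scale, each in every fit. These 5 genes lie apart from one another on the chromosome, with start positions from 84317874 (HDX) to 141903894 (MAGEC1).

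Calls over the whole X chromosome went both ways. Of its 453 tested protein-coding genes 76 rose (16.8%) and 58 fell (12.8%), with a median log2 change of 0.04. Over all tested protein-coding genes with a position 12.3% rose and 16.2% fell. Further X-linked genes that rose at least 2-fold in every fit include MAGEE1 (log2 change 2.12), NAP1L3 (1.81), USP51 (1.76) and CXorf57 (1.56). Others fell as clearly. TENM1, an adhesion receptor of the teneurin family, stood at 1004, 942 and 788 in the parental libraries against 88.7, 77.2 and 99.6 in the DD libraries (log2 change -3.35), and the glucocorticoid-induced TSC22D3 fell by 2.11. The X-linked genes in this paragraph other than TENM1 were chosen after their values were seen.

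A further 6 of the 12 highest changes were highest in DD 2 and DD 3 and far lower in DD 1. MYO1G, an unconventional myosin of blood cells, stood at 24.3, 19.1 and 7.11 in the parental libraries and at 31.1, 313 and 550.2 in the DD libraries. JPH4, a junctophilin of neurons, stood at 191, 119.9 and 21.3 against 299, 969 and 1788, and GPR78, an orphan receptor, at 13.0, 5.21 and 1.02 against 14.0, 117 and 254. In each of these 3 genes DD 1 was less than 2-fold above the highest parental library, and they were called in 3, 4 and 3 of the 6 fits that left out a library. RNA5-8SP2, a pseudogene of ribosomal RNA, stood at 285, 167 and 53.8 against 512, 3106 and 3143, and copies of that RNA can share its reads. For RP11-402C9.1 the values were 3.24, 2.61 and 0 against 14.8, 89.8 and 76.5, and for the antisense transcript AC105760.2 they were 10.5, 1.74 and 3.05 against 13.2, 64.6 and 179. In both DD 1 was the lowest DD library, and of the 6 genes RNA5-8SP2 and RP11-402C9.1 were called in every fit.

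Neuronal and neurosecretory genes were called higher more often than lower in the DD libraries. This list too was chosen with earlier results of these data known, so its excess is no independent support. Of 37 tested, 19 rose (51.4%, against 11.0% of all genes) and 3 fell, and 16 rose in every fit, with a median log2 change of 0.50. Among genes of secretory granules, CHGA stood at 58.3, 61.7 and 57.9 in the parental libraries and at 258, 268 and 228 in the DD libraries (log2 change 2.06, SE 0.14, limma adjusted p = 3.26e-05). CHGB stood at 180.5, 123 and 161 against 618, 701 and 723 (log2 change 2.14, SE 0.15, limma adjusted p = 4.07e-05). Of synaptic genes, the scaffold DLGAP1 rose by 2.30, the vesicle proteins SYP and SNAP25 by 0.90 each and SYT1 by 1.89 on the log2 scale. The growth cone protein GAP43 rose by 2.26 and the sodium leak channel NALCN by 1.59. SYT1 lies in the chromosome 12 block where most genes fell, and NALCN in a stretch of chromosome 13 where 18 of 42 genes rose. NRXN3, a presynaptic adhesion protein, stood at 1693, 1634 and 1449.7 against 992, 847 and 876 and fell by 0.81, and the neuronal ubiquitin hydrolase UCHL1 fell by 0.54. The 19 risers became 16 to 19 when single libraries were left out. The granule protein SCG3 rose by 1.92. SCG3, SYP, SNAP25, SYT1, GAP43 and NALCN were named after their values were seen.

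Genes downstream of growth factor signalling were called lower more often than higher. Of 33 immediate early and ERK feedback genes 11 fell (33.3%, against 13.5% of all genes), 1 rose and 21 were not called. In every fit 9 fell (27.3%, against 6.77%). CCND1, cyclin D1 of the G1 phase, stood at 3282, 3285 and 3218 in the parental libraries and at 347, 438 and 408 in the DD libraries. With almost no spread within a line, its log2 change was -3.04 (SE 0.10, limma adjusted p = 7.98e-07). SPRY4, a feedback inhibitor of receptor tyrosine kinases, stood at 226, 219 and 219 against 44.3, 37.8 and 37.7 (log2 change -2.44, SE 0.15). MYC stood at 14074, 15627 and 16258 against 6428, 7286 and 6550.4 (log2 change -1.18, SE 0.10). ETV4, a transcription factor induced by ERK, fell by 1.53, FOSL1 by 1.11 and the ERK phosphatase DUSP5 by 0.97 on the log2 scale. ETV4, FOSL1 and DUSP5 were named after their values were seen.

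Targets of p53 were called higher more often than lower. Of 33 tested 11 rose and 4 fell. In every fit 8 rose (24.2%) and none fell, against 3.88% and 6.77% of all genes. CDKN1A, the kinase inhibitor p21, stood at 1243, 1198 and 1100.2 in the parental libraries against 2791, 3637 and 3959.6 in the DD libraries (log2 change 1.54, SE 0.13, limma adjusted p = 9.92e-05). The DNA damage sensor DDB2 and the apoptosis protein BAX rose by 0.98 and 0.79 on the log2 scale. MDM2, which degrades p53, is itself a target and lies in the chromosome 12 block, stood at 5235, 4854 and 4936 against 3967, 3809 and 3919.7, a log2 change of -0.36 (limma adjusted p = 0.0109), and was called in 5 of the 6 fits that left out a library. Lower calls in this list ranged from 0, without parental 1, to 5.

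Extracellular matrix genes changed in both directions. Of 50 tested, 18 fell (36%, against 13.5% of all genes) and 8 rose (16%, against 11.0%). Proteins of the basement membrane were among the lower ones. AGRN (agrin) fell by 1.45 and HSPG2 (perlecan) by 1.24 on the log2 scale, and both lie in the block of chromosome 1 described below. LAMB1 and LAMC1, laminin chains on chromosome 7 and chromosome 1, fell by 0.73 and 0.59, and LAMA1 by 0.77. Several proteins of interstitial matrix rose. SPARC, which binds collagen, stood at 310.0, 328 and 281 in the parental libraries and at 1686, 1684 and 1816 in the DD libraries (log2 change 2.49, SE 0.10, limma adjusted p = 1.41e-06). COL12A1, a fibril-associated collagen, stood at 164, 175 and 158 against 483, 482 and 506 (log2 change 1.56, SE 0.11), and the microfibril protein FBN1 rose by 1.41. Lower calls numbered 12, without parental 2, to 23, without parental 3, and higher calls 6 to 8.

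Adhesion receptors fell more often than they rose. Of 43 tested, 13 fell (30.2%, against 13.5% of all genes) and 2 rose (4.65%, against 11.0%). In every fit 10 fell (23.3%, against 6.77%). Besides the cadherins CDH3 and CDH1 and the teneurin TENM1, the nectin PVRL3 (now NECTIN3) stood at 130.3, 143 and 118 in the parental libraries against 28.8, 26.8 and 27.2 in the DD libraries (log2 change -2.20, SE 0.18). The fibronectin receptor chain ITGA5 fell by 0.84 on the log2 scale and lies in the chromosome 12 block. PCDH9, a protocadherin, rose by 1.08. The laminins and ITGA5 were named after their values were seen.

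Of 57 replication-dependent histone genes 25 fell (43.9%, against 13.5% of all genes), 1 rose and 31 were not called. In every fit 11 fell (19.3%, against 6.77%). Their median log2 change was -0.34. Lower calls numbered 11 without parental 2, 15 without parental 1 or DD 3, and 28 without parental 3. HIST1H2BI stood at 173, 156 and 165 in the parental libraries against 31.1, 22.1 and 26.2 in the DD libraries (log2 change -2.61, SE 0.19, limma adjusted p = 4.67e-05), and HIST1H2AK fell by 0.94. HIST1H2BG rose by 0.54. Members of a histone family share near-identical sequence, so the split of reads among them is uncertain.

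Genes of DNA replication and mitosis were called higher more often than lower, and parental 3 lay toward the DD libraries in both groups. Of 48 replication genes 17 rose and 3 fell, and in every fit 10 rose (20.8%) and 3 fell (6.25%). Of 64 mitosis genes 17 rose and 3 fell, and in every fit 6 rose (9.38%) and 3 fell (4.69%). Over all genes 3.88% rose and 6.77% fell in every fit. For the heat shock and folding list the counts were 11 and 1 of 32, and 4 rose in every fit. MCM6, of the replicative helicase, stood at 11856, 12580.5 and 18114 in the parental libraries and at 27005, 27468 and 24574 in the DD libraries (log2 change 0.92, limma adjusted p = 0.00379). FEN1, which trims Okazaki fragments, stood at 5837, 5464 and 6501 against 8806, 9324 and 8207 (log2 change 0.57, limma adjusted p = 0.00381). NDC80 of the kinetochore rose by 0.96 and the chaperone HSPH1 by 1.28 on the log2 scale. POLE3, a histone-fold subunit of polymerase epsilon, went the other way, at 1304, 1006 and 976 against 352, 381 and 499.9 (log2 change -1.42). Without parental 3 the higher calls came to 28, 33 and 21 for replication, mitosis and heat shock, and without parental 2 to 10, 6 and 4. They came to 11, 10 and 6 without parental 1 and to 11, 7 and 7 without DD 1, and for heat shock also to 7 without DD 2 or without DD 3.

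**Figure D4:**
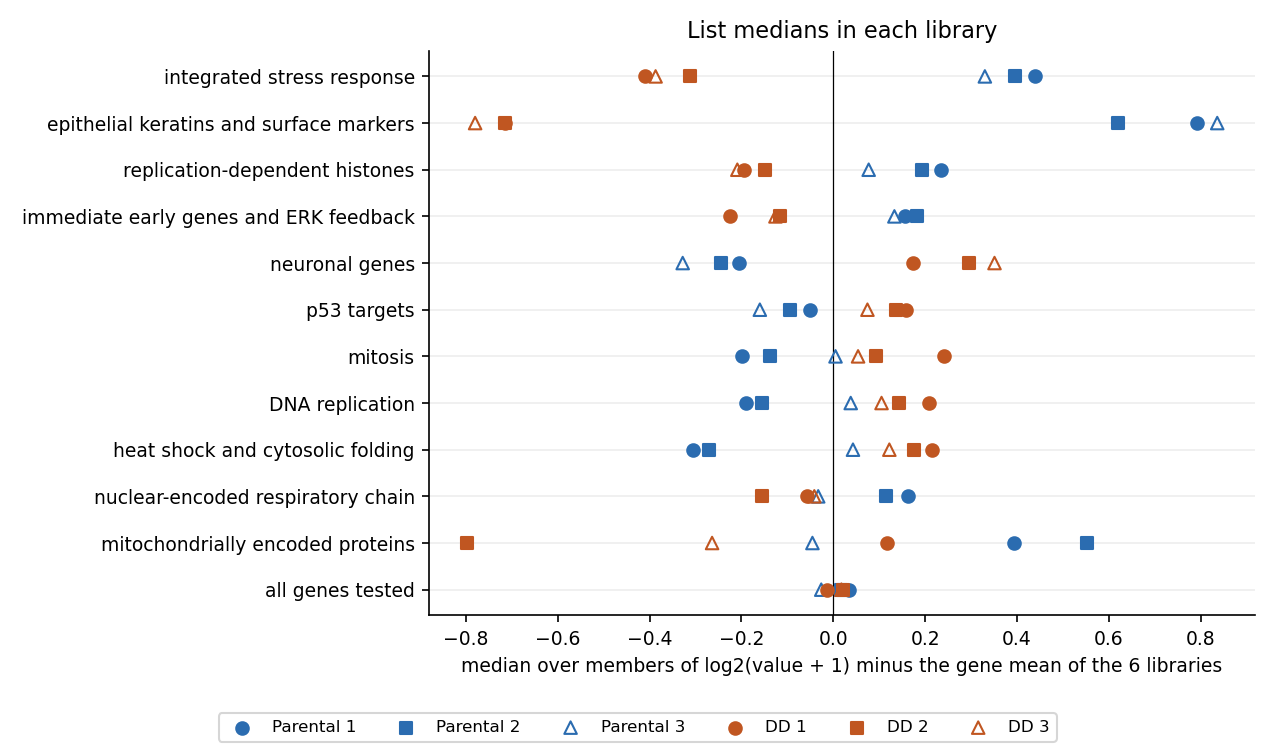
For 11 gene lists and for all genes tested, the median over members of each library's log2(value + 1) minus the gene's mean over the 6 libraries, with 1 point per library (parental in blue, DD in orange, replicates 1 to 3 as circle, square and open triangle). The lines do not overlap in the first 10 lists, parental 3 lies closer to the DD than to the other parental libraries for mitosis, DNA replication, heat shock and the respiratory chain, and the mitochondrially encoded genes overlap, with DD 2 lowest at -0.80.

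Genes of the respiratory chain fell where they were called. Of 77 nuclear-encoded members 19 fell (24.7%, against 13.5% of all genes) and none rose. In every fit 8 fell (10.4%, against 6.77%). In the fifth of genes with the shortest coding sequences 20.7% fell, and 10.1% fell in every fit. The part of coding length in the calls of this list was not tested. Lower calls numbered 8 without parental 1 or parental 2, 29 without parental 3, 11 without DD 2 and 9 without DD 3. SDHB, an iron-sulfur subunit of complex II that lies in the chromosome 1 block, stood at 9372, 9311 and 8492 in the parental libraries against 4134, 3995 and 3766 in the DD libraries (log2 change -1.19, SE 0.09). ATP5G3, a subunit c gene of ATP synthase, stood at 17846, 17312 and 14937 against 7312, 6753 and 7220.1 (log2 change -1.23, SE 0.10). Outside the blocks 15 of 72 fell. Of 13 proteins encoded in mitochondria 4 fell, 2 of them in every fit, and lower calls numbered 7 without parental 3 or DD 1 and 2 without parental 2 or DD 3. Their median log2 change was -0.61, and -0.89 to -0.35 without single libraries. MT-CO1 stood at 52704, 57803 and 39579 against 29317, 20154 and 25989.7 (log2 change -0.99, limma adjusted p = 0.0051). The share of reads in mitochondrial ribosomal RNA was 0.935%, 0.994% and 0.590% in the parental libraries and 0.789%, 0.401% and 0.883% in the DD libraries, and its part in these results was not tested.

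Factors of mRNA decay and repression were called in both directions. Of 28 CCR4-NOT, PAN2-PAN3 and decapping factors, which shorten poly(A) tails and remove caps, 5 rose and 5 fell, and 3 were called in every fit (all lower), against 10.6% of all genes. The decapping factor DCP1A stood at 1331, 1359.5 and 1396 in the parental libraries and at 523, 521 and 499 in the DD libraries, a log2 change of -1.40 (SE 0.08, limma adjusted p = 1.48e-05). PAN2, the nuclease of the PAN2-PAN3 deadenylase, stood at 1864, 1814 and 1634 against 712, 714 and 791 (log2 change -1.26). It lies in the chromosome 12 block. LSM14B, an RNA granule protein, stood at 2319, 2385 and 2287 against 1066, 1167 and 1094 (log2 change -1.07). The subunits of the CCR4-NOT core were not called in every fit. Without parental 3 there were 9 in each direction. Without parental 1, parental 2 or DD 3 none rose and 3 fell, without DD 1 1 rose and 3 fell, and without DD 2 2 rose.

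Among the repressors that bind the cap or the cap-binding proteins, 4 of 15 rose and 1 fell, with 1 higher without parental 2, 2 without DD 2 or DD 3 and 9 without parental 3. EIF4EBP1 fell by 1.05 (4784, 4479.9 and 3409 against 1838, 2366 and 1907), and ZFP36, which brings decay factors to AU-rich mRNAs, rose by 0.82 on the log2 scale. Of 16 microRNA machinery genes 4 fell (25%, against 13.5% of all genes) and 1 rose (6.25%, against 11.0%). AGO1 and TARBP2, of the loading complex, fell by 0.42 and 0.53, and LIN28B, which blocks processing of let-7, by 1.04. TARBP2 lies in the chromosome 12 block, and outside the blocks 2 of 14 microRNA genes fell. Of 14 nonsense-mediated decay factors 6 rose (42.9%, against 11.0% of all genes) and 1 fell (7.14%, against 13.5%). However, only UPF2 rose in every fit (log2 change 0.83), and without parental 2 a single member rose. Of 23 enzymes of wobble-base tRNA modification 3 rose (13%, against 11.0% of all genes) and 5 fell (21.7%, against 13.5%). Lower calls numbered 2 without parental 2 and 3 without parental 1, DD 2 or DD 3, and higher calls 0 without parental 2 or DD 3. QTRT1, which puts queuosine into tRNA, stood at 2699, 2888 and 2797 against 1622, 1942 and 1776 (log2 change -0.65), and ADAT2 fell by 0.59.

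Calls among ribosomal proteins were near the background. Of 78 cytosolic ribosomal proteins 7 rose (8.97%) and 9 fell (11.5%), close to the shares over all genes, with a median log2 change of 0.03. All 7 risers were lost in at least 1 of the 6 fits, and 8 fell in every fit. RPL11, named like RPS26 after its values were seen and lying in the chromosome 1 block, stood at 37692, 36070.2 and 37379 in the parental libraries against 26669.7, 26858 and 26068 in the DD libraries (log2 change -0.48). RPS26 fell by 1.20 and lies in the chromosome 12 block. For RPL21 (-0.84) and RPL17 (-0.67) pseudogenes or overlapping genes can share reads, and their levels are uncertain. Of 44 translation factors 7 rose (15.9%) and 4 fell (9.09%), against 11.0% and 13.5% of all genes. EIF5A, which helps ribosomes over proline runs, stood at 17977, 17240.2 and 16931 against 10613, 8395 and 9165 (log2 change -0.89, SE 0.11, limma adjusted p = 0.000631), and EIF6 fell by 0.47. EIF5B, named after its values were seen, was called higher by 1.65 (limma adjusted p = 0.0452), but the groups overlapped. It stood at 1803, 1935 and 8865 against 11975, 10089.5 and 7901, with parental 3 inside the DD range.

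Smaller groups held genes with large changes in both directions. Over all genes tested 11.0% rose and 13.5% fell. Of 38 interferon-stimulated genes 7 rose (18.4%) and 8 fell (21.1%). OAS3, which acts on sensing double-stranded RNA, stood at 220.2, 229 and 238 in the parental libraries and at 6.22, 17.3 and 8.38 in the DD libraries (log2 change -4.42, SE 0.32), while IFIT3, named after its values were seen, rose from 15.4, 24.3 and 41.7 to 97.2, 89.8 and 72.3 (log2 change 1.74, SE 0.33). Of 38 glycolysis and hypoxia genes 4 rose and 9 fell. NDRG1 fell by 1.30 and the glucose carrier SLC2A3 rose by 1.97 on the log2 scale, from 102, 102 and 91.4 to 409, 349.7 and 406. Of 35 HOX genes 8 rose and 6 fell. HOXC4 (log2 change -1.13), HOXC11 (-0.70), HOXC13 (-0.94) and HOXC6 (-0.58) fell and belong to the cluster on chromosome 12, inside the block where most genes fell. HOXD1 fell by 2.06 on the log2 scale, and HOXB5 rose by 0.69, the 1 HOX gene that rose in every fit. Higher HOX calls numbered 2 without parental 2 and 3 without parental 1 or DD 3. Of 24 YAP and TEAD targets 4 rose and 6 fell, among them FJX1 (-1.32) and LATS2 (-1.02).

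The remaining lists stayed near the shares over all genes or were small. Cholesterol synthesis had 2 of 31 higher and 5 lower, with FADS1 at -0.59 and NSDHL at 0.56. The proteasome had 2 of 38 higher and 3 lower, with the activator subunits PSME2 and PSME1 at -0.62 and -0.53. Of 448 genes named ZNF 47 rose and 46 fell. Of 14 snoRNA host transcripts, which are mostly noncoding, 5 fell and none rose. GAS5 stood at 505, 619 and 588 in the parental libraries against 254, 284 and 222 in the DD libraries (log2 change -1.17, SE 0.13), and SNHG12, at the start of chromosome 1, fell by 1.59. Many of these counts rest on single libraries. Without parental 2, higher calls came to 0 for translation factors and ribosomal proteins, 1 for glycolysis and hypoxia and 20 for genes named ZNF. Without parental 3 the same counts were 16, 12, 9 and 73. Higher YAP and TEAD calls came to 0 without DD 1, and lower ones to 2 without parental 1 or parental 2.

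The relation to codons that the study's title names was examined with AT3, the percentage of a gene's codons that end in A or T, over 13552 genes with a coding sequence. For each library the slope of the gene-centred log2 value on AT3 was taken per 10 percentage points. It was -0.0159, -0.0201 and 0.00493 in parental replicates 1 to 3 and 0.0695, -0.0337 and -0.00475 in DD replicates 1 to 3. DD 1 had the steepest slope of the 6 in 1 direction and DD 2 in the other, so the DD libraries spanned the parental ones. The means were -0.0104 ± 0.0134 (SD, n = 3) and 0.0104 ± 0.0532 (SD, n = 3). Their difference of 0.0207 did not pass an exact permutation test (two-sided p = 0.8, where 0.1 is the smallest p that 3 against 3 allows). Without DD 1 the difference in AT3 slope had the opposite sign, at -0.00886.

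Calls nevertheless differed along AT3. In the fifth of genes with the highest AT3 (58.2% to 78.7%) 18.7% rose and 9.96% fell, and in the fifth with the lowest (up to 23.7%) 10.2% rose and 17.5% fell. Among calls made in every fit these shares were 6.86% and 5.05% against 3.87% and 9.33%. Across genes, which are not independent replicates, DD 1 minus the mean of DD 2 and DD 3 correlated with AT3 at r = 0.43 (Spearman 0.59). The mean of DD 2 and 3 minus that of parental 1 and 2 correlated at -0.00324. Coding length moved with parental 3: that library minus the mean of parental 1 and 2 correlated with log2 length at 0.27 across the same genes. Length also moved with the line. The mean of DD 2 and 3 minus that of parental 1 and 2 correlated with it at 0.20, and the DD mean minus the parental mean at 0.15. In the fifth of genes with the shortest coding sequences (36 to 267 codons) 6.61% rose and 20.7% fell. In the fifth with the longest (from 884 codons) 16.2% rose and 12.8% fell.

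Single genes show how far replicates of 1 line differed. In 177 genes parental 3 was at least 2-fold above both other parental libraries, and in 76 of these all DD libraries were so too. HNRNPU, an abundant nuclear RNA-binding protein, stood at 45090.5, 47269.5 and 96255 in the parental libraries and at 104807, 99176 and 93673 in the DD libraries, and was not called (limma adjusted p = 0.0691). The clathrin heavy chain CLTC stood at 21881, 21623 and 59368 against 66040.4, 60441 and 48467. In 315 genes DD 1 was at least 2-fold below both other DD libraries. SRRM3, a splicing factor of neurons, stood at 1150.2, 365 and 193 against 758, 8935 and 15197, so that DD 1 lay within the parental range. SRF, the serum response factor, stood at 1519, 1319 and 1261 against 1509.7, 3814 and 6537. These genes were chosen after their values were seen, by mean level.

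Changes also varied with position along chromosomes. The tested protein-coding genes (13543 placed by name with GENCODE 29 on GRCh38) were grouped into windows of 10 Mb with at least 10 genes, 292 in all. In 258 windows the median log2 change lay within 0.2 of 0. It was -0.25 or less in 12, of which 1 is the mitochondrial genome with its 13 genes, and 0.25 or more in 6. Adjacent windows of the nuclear chromosomes past these bounds, which were set after the medians were seen, were joined. The start of chromosome 1, up to position 29326813, held 285 genes with a median of -0.54, of which 184 fell and 6 rose. On chromosome 12, positions 50000001 to 79935460 held 201 genes with a median of -0.53, of which 114 fell and 7 rose. At the end of chromosome 4, from 180000001 to 189963204, all 28 genes had a log2 change below 0 (median -0.90), and 24 fell. At the end of chromosome 8, from 140000001 to 145066685, 47 of 74 genes rose and 1 fell (median 0.49). Chromosome 13 as a whole had 75 of 241 genes higher (31.1%) and 28 lower (11.6%), against 12.3% and 16.2% of all placed genes. Its joined stretches were 40000001 to 60000000, 70000001 to 79556075 and 100000001 to 114337626 (medians 0.30, 0.33 and 0.35). Other joined stretches were 90000001 to 99984654 on chromosome 12 (-0.41) and 60000001 to 69055189 on chromosome 18 (-0.36). On chromosome 2 they were 220000001 to 230000000 (-0.30) and 240000001 to 241804208 (-0.41). List members counted outside the blocks lie outside every joined window.

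In each of these stretches the median of every DD library lay on the same side of the median of every parental library. On chromosome 4 the medians, as log2 values centred on each gene, were 0.49, 0.46 and 0.37 in parental replicates 1 to 3 and -0.39, -0.50 and -0.44 in DD replicates 1 to 3. Parental 3 and DD 1 did not stand apart there. Within the joined windows, lower and higher ones pooled, 46.3% of 807 genes fell and 14.5% rose. Outside them 14.3% of 12736 fell and 12.2% rose. The windows were picked by these same changes. The excess of calls inside them and the separation of their medians are therefore no independent support. MFAP2, RBP7 and FBXO6, among the 12 lowest genes, lie in the chromosome 1 stretch.

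**Figure D5:**
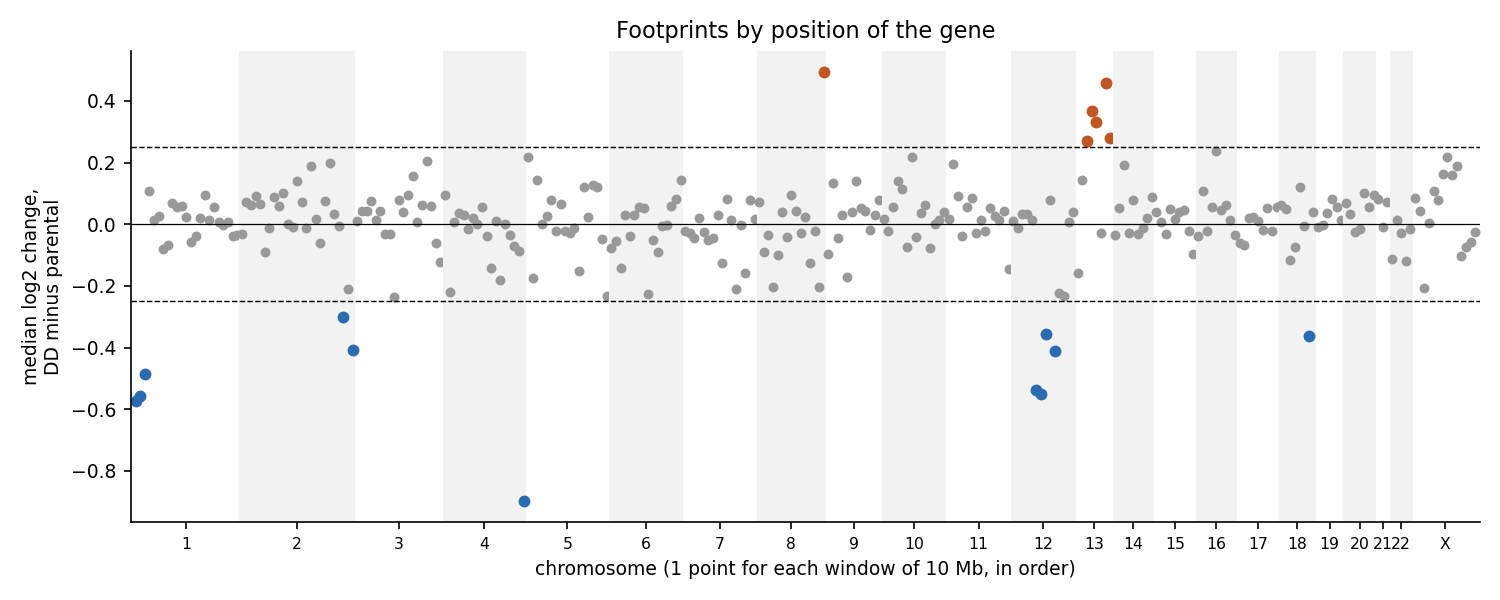
Median log2 change of DD minus parental libraries for tested protein-coding genes in windows of 10 Mb, in order along chromosomes 1 to 22 and X, with dashed lines at -0.25 and 0.25 and windows past them in blue (lower) or orange (higher). The lowest windows lie at the start of chromosome 1, on chromosome 12 and at the end of chromosome 4, and the highest at the end of chromosome 8 and on chromosome 13.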

How the data were processed

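Ribosome profiling libraries of 2 HEK293 lines, 3 each, were compared. The deposited table holds a normalized signal per gene name and library, normalized counts per the file name. Tools listed in the submitters' processing notes are HTSeq, STAR, cutadapt, DESeq2 and Bowtie, and both hg19 and hg38 appear as builds, with no roles or versions. The build used for alignment, the footprint lengths kept and the handling of multiply mapping reads were, for the sources used here, not given. Every value was a whole multiple of the library's smallest step (100% of values within 0.001 reads), so reads were recovered for depths, intervals (95%, exact binomial, counting error only) and count tests. Names were matched to GENCODE 29 (35554) and to a coding sequence of at least 30 codons (19132, the longest). The 28 names turned into dates and 4 duplicated rows were not named. Tests used limma 3.58.1 in R 4.3.3 (lmFit, eBayes with trend) on log2(value + 1), genes at 10 or more in at least 3 libraries, with Benjamini-Hochberg adjustment at 0.05. As alternatives, edgeR 4.0.16 with its quasi-likelihood test called 1810 genes higher and 2315 lower from these reads, and DESeq2 1.42.0 called 1917 and 2279. On simulated data (16773 genes) limma found 28.4% of planted changes at 1.5-fold, 77.6% at 2-fold and 100% at 4-fold, and 6.8% of its calls were false. Simulated counts varied independently from gene to gene, without shifts of a whole library such as those of parental 3 and DD 1. The false share therefore does not cover such shifts and may not hold for the real libraries. Named genes are the targets, the 12 highest and 12 lowest changes that passed the test with no overlap between lines and a mean of 20 or more in either line, and up to 3 called members per direction, by the smallest p, of each of 33 gene lists (1676 genes). Members and lists were chosen with earlier results of these data known. Alternatives were other pseudocounts, filters and scalings, array weights, a replicate block, the count tests and leaving out libraries. A few genes that these rules name are not reported here.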

Additional observations from a re-analysis of the deposited data

How the results depend on the processing

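The counts of higher and lower genes were 1669 to 1966 and 2119 to 2514 under other pseudocounts, filters and scalings, edgeR and DESeq2. With limma array weights, which did not converge, 4426 genes were higher and 4577 lower. Leaving out single libraries gave 767 to 2642 higher and 1192 to 2989 lower. Leaving out parental 3 and DD 1 together, chosen after the data were seen, gave 2905 and 3179. For calls made in every fit edgeR gave 638 higher and 1197 lower. ZC3H7A was called without the filter (log2 change 1.03, limma adjusted p = 0.0174), with array weights (1.30, 0.000679) and by edgeR (1.23, adjusted p = 0.0412). DESeq2 did not call it (adjusted p = 0.0726). Without single libraries its change was 0.63 to 1.59. ZC3H7B was called with array weights (0.36, limma adjusted p = 0.00831), and its change was 0.11 to 0.47 without single libraries. The difference in AT3 slope was -0.00886 to 0.0427 without single libraries, the first of these without DD 1. The cause of these shifts was not tested. Same-numbered libraries deviated together by correlations of -0.133, 0.0332 and -0.131. With 3 libraries per line these values cannot show whether replicate numbers pair the samples. With the replicate block 1255 genes were higher and 1737 lower. Of 177 named genes 175 were called and none changed sign under any setting; 44 lost their call without parental 2, the most for 1 library. Depth limits low genes: 3 reads were worth 2.33 to 4.73 normalized counts.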
